A study of Solanum lycopersicum with 9 samples.

Results

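The transcripts of wild-type tomato seeds (Solanum lycopersicum) were described by abundance, with no contrast between genotypes. The members are the 3 libraries labelled WT out of 9 in the series, and they were chosen by that label alone. All 9 libraries came from seeds imbibed for 6 h, that is, seeds that had taken up water for that time. The other 6 libraries, 3 from an SlLBD40 knockout and 3 from an SlWRKY37 knockout, were not used for any value below. The labels do not say whether the 3 WT libraries came from separate plants, seed lots or imbibitions, so the spread between them may be technical. They name no cultivar or seed part. RNA from seeds is a mixture of cell types, in which fewer cells of a type and less RNA per cell cannot be told apart.

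A dry seed carries messenger RNA made while it matured on the mother plant. During imbibition respiration and protein synthesis start again in the embryo and the surrounding endosperm, before the root tip emerges. Late embryogenesis abundant (LEA) proteins and dehydrins are small hydrophilic proteins linked to survival of drying, oleosins coat the oil bodies of seed cells, and vicilins and albumins are nitrogen reserves. Abscisic acid holds back germination and gibberellin promotes it.

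Each gene had 1 expression value per library. No source names the unit; the values were read as FPKM, a fragment count divided by gene length and by library size, so levels of different genes are compared per unit of length. A share is a gene's value as a percentage of the sum of all values in that library. The sums were 894884 in WT replicate 1, 910262 in WT replicate 2 and 895804 in WT replicate 3. These sums do not tell FPKM from TPM (another measure scaled by length and depth) over a larger gene set. The table lists 40229 genes, 34075 with a protein-coding identifier and 6154 with an RNA-gene identifier. Values above 0 were listed for 24161, 24155 and 24058 genes in the 3 libraries, and 13506 genes were at 0 in all of them. The depth of sequencing is unknown, because the file holds no counts. Since there is a single group, no test was made; a difference is called clear of the library spread only where the ranges of the 3 libraries do not overlap.

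The sum was concentrated in few genes. The most abundant gene held 3.30%, 2.87% and 2.42% of it in WT replicates 1, 2 and 3. The 10 most abundant genes held 9.76%, 8.77% and 8.24%, and the 100 most abundant held 25.6%, 24.1% and 24.3%. To reach 50% of the sum took 562, 602 and 576 genes, and to reach 90% took 6199, 6484 and 6201. The number of genes at 1000 or more was 95, 101 and 100. The order at the top was shared: 9 genes were among the first 10 in all 3 libraries and 11 in at least 1, 21 against 31 for the first 25, and 87 against 114 for the first 100.

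**Figure D1:**
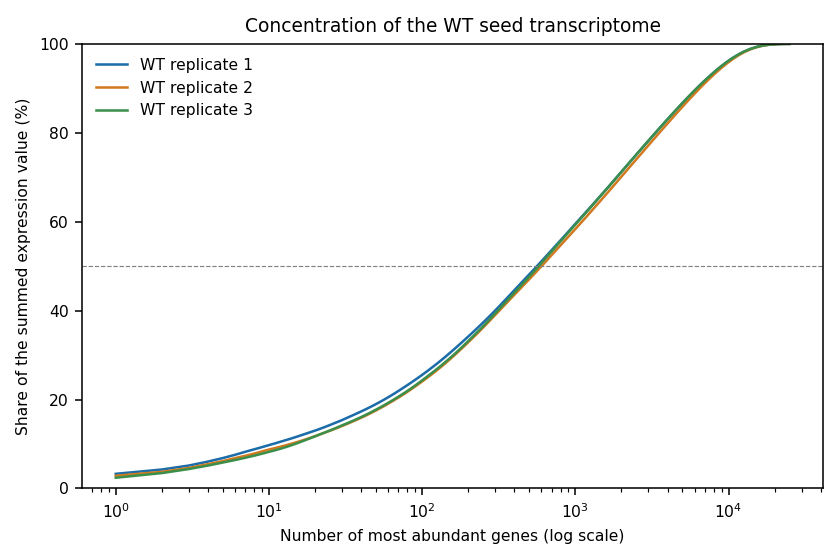
Cumulative share of the summed expression value (y axis, percent) against the number of most abundant genes (x axis, log scale), with 1 line for each WT library and a dashed line at 50%. The lines start between 2.42% and 3.30% for the first gene, and WT replicate 1 runs above the others over the first 100 genes.

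An 11 kDa LEA protein on chromosome 10 led all libraries. Its value was 29545 in WT replicate 1, 26081 in WT replicate 2 and 21682 in WT replicate 3, a mean of 25769 ± 3941 (SD, n = 3). It stood 3.41, 3.26 and 2.31 times above the second gene in the order of means, so its rank was clear of the library spread while the distance varied. The second gene, on a sequence placed on no chromosome, is described only as an unknown protein, with values of 8664, 8005 and 9377. The third, on chromosome 1, carries the description meloidogyne-induced giant cell protein DB141, a name from root-knot nematode work, and had the steadiest value among the first 25 genes, 7980, 7919 and 8131.

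Behind them came a group in which maturation and chaperone transcripts alternated. LEA genes on chromosomes 9 and 6 had means of 7345 ± 1013 and 4974 ± 989 (SD, n = 3). The cytosolic chaperone Hsp90-2 on chromosome 7 had values of 7084, 6044 and 6980. The vicilin gene on chromosome 9 had values of 6509, 6252 and 4975. These levels sat close together: of the 24 neighbouring pairs among the 25 most abundant genes, 22 had overlapping ranges, and only 2 did not.

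The places from 8 to 12 were held by a dehydrin on chromosome 2, an Hsc70-type chaperone named HSC2-like on chromosome 9, a non-specific lipid-transfer protein on chromosome 1, a gene described as DNA polymerase epsilon catalytic subunit A on chromosome 4, and an S-adenosyl-L-methionine synthetase on chromosome 1. The dehydrin was at 5004, 4576 and 4039, and the HSC2-like gene at 4360, 4346 and 4594. The polymerase description rests on the deposited annotation alone, and the gene's mean of 3244 ± 394 (SD, n = 3) was not checked against its sequence. S-adenosyl-L-methionine synthetase, which makes the cell's main methyl donor and the precursor of ethylene and polyamines, was at 3037, 2926 and 3270.

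Among the first 25 genes, 5 were LEA or dehydrin genes, 3 unknown, 2 lipid-transfer proteins, 2 large heat shock chaperones and 2 oleosins. No ribosomal protein gene was among them. Among the first 100 genes, 21 encoded cytosolic ribosomal proteins and 10 were LEA or dehydrin genes.

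**Figure D2:**
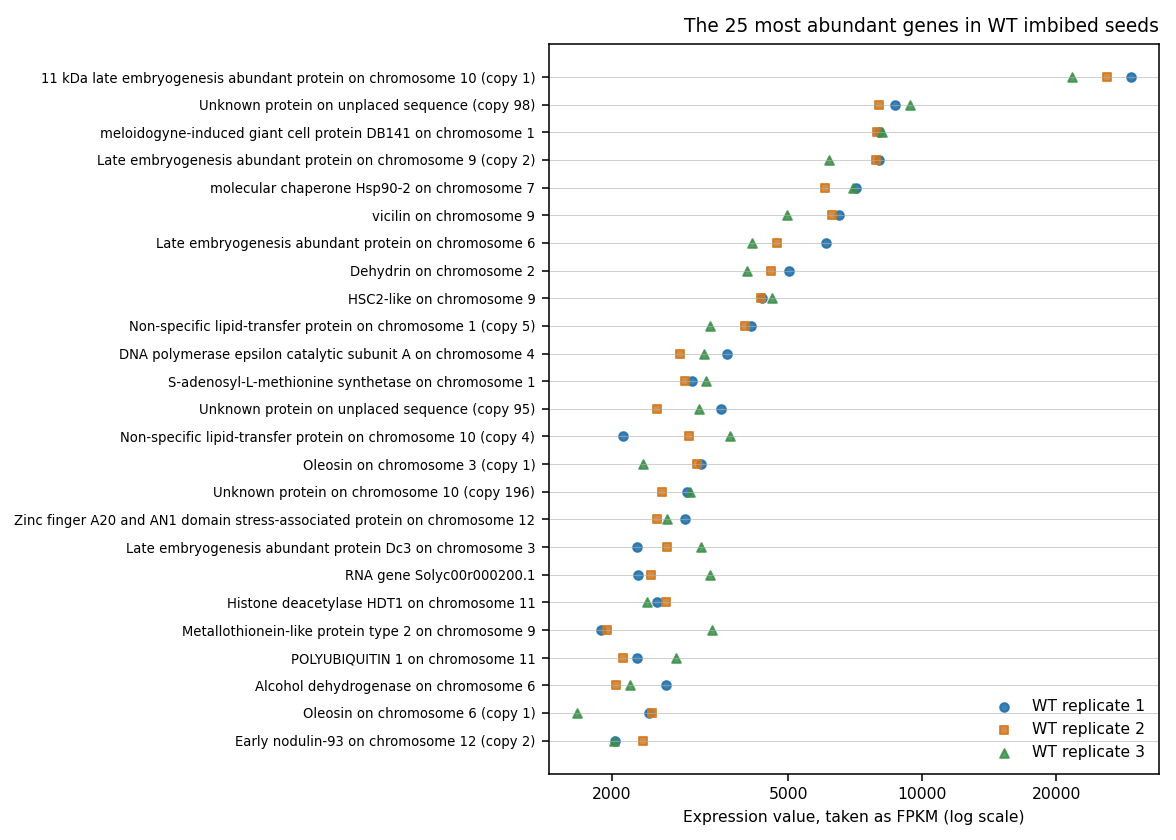
Expression value in each WT library (x axis, taken as FPKM, log scale) of the 25 genes with the highest mean, ordered by mean from the top; circles, squares and triangles mark WT replicates 1, 2 and 3. The 11 kDa LEA gene lies between 21682 and 29545, apart from the rest, and the ranges of most neighbours overlap.

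Genes were sorted by words in their descriptions into 60 classes, each gene in the first class that it matched. A further 14974 described genes matched none and held 27.4% ± 0.0230 (SD, n = 3) of the sum. Cytosolic ribosomal proteins were the largest named class at 12.2% ± 0.778, followed by LEA proteins and dehydrins at 6.88% ± 0.712. Genes of unknown function held 7.03% ± 0.0956. The ubiquitin system held 3.97% ± 0.108, RNA-binding and splicing proteins 3.78% ± 0.0492, translation factors 3.04% ± 0.0556, kinases and phosphatases 2.71% ± 0.0718 and large heat shock chaperones 2.29% ± 0.140. The order of these 7 named classes, and their distance from the eighth, was clear of the library spread. Further down it was not: of the 19 neighbouring pairs among the 20 largest named classes, 8 had ranges that did not overlap and 11 had ranges that did.

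**Figure D3:**
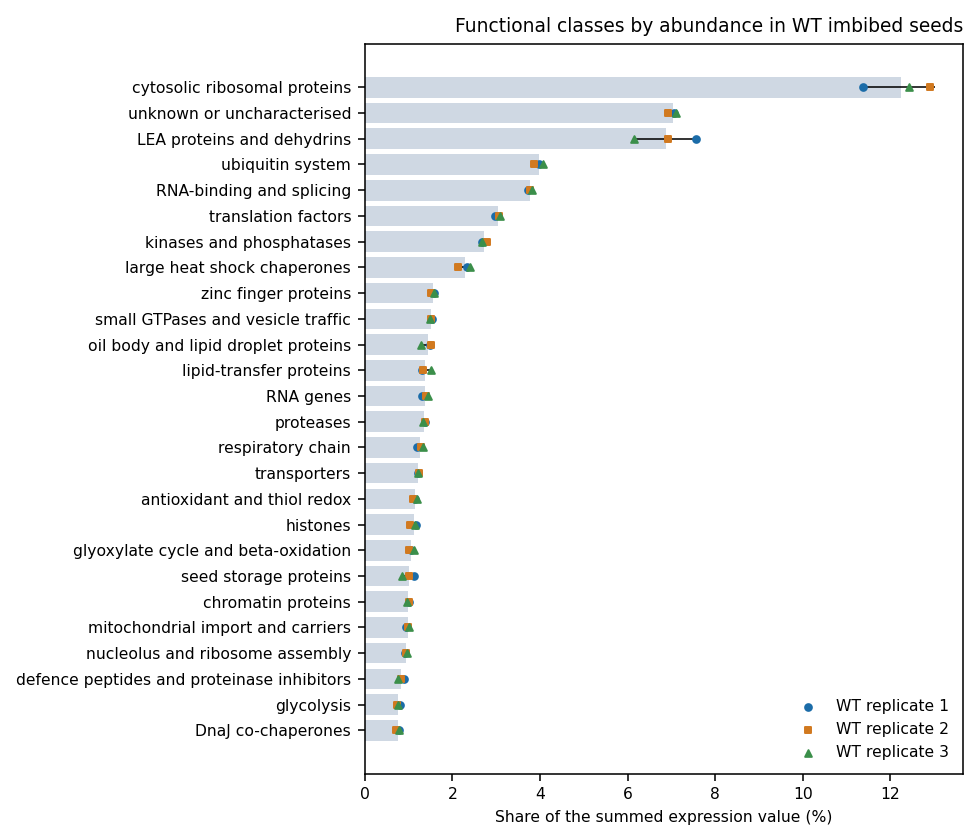
Share of the summed expression value (x axis, percent) held by the 26 largest classes, without the described genes that matched no class; bars are means over 3 WT libraries, error bars the SD, and symbols the single libraries. Cytosolic ribosomal proteins lie near 12.2% and LEA proteins near 6.88%, with the widest bars.

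The largest block served protein synthesis. Cytosolic ribosomal proteins, translation factors and nucleolar and ribosome assembly proteins together held 15.3%, 16.9% and 16.5% of the sum. The ribosomal share rested on many genes with no dominant one. Of 368 genes, 270 had a mean of at least 1 and 197 of at least 100, against 17995 and 1522 of all 40229. The median of those 270 was 333, with quartiles of 88 and 621. The leading gene, ribosomal protein L19 on chromosome 6, was at 1603, 1710 and 1626, which is 1.49% of the class. Genes named as 60S, the large subunit, held 5.90% ± 0.398 and those named as 40S, the small subunit, held 4.47% ± 0.263 (SD, n = 3). Descriptions do not always tell an organellar ribosomal protein from a cytosolic one, so the class may hold some of the former.

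Other members of the large and small subunit stood close to L19. The L17 gene on chromosome 3 was at 1551, 1663 and 1695, the S26 gene on chromosome 6 at 1535, 1633 and 1617, and the L23a gene on chromosome 9 at 1403, 1610 and 1555. All 3 were lowest in WT replicate 1. The same held for the class, whose share was 11.4%, 12.9% and 12.4%. Of the 270 ribosomal genes with a mean of at least 1, 218 had their highest value in WT replicate 2. Over all 17995 genes with such a mean, 50.2% were highest in that library, 24.9% in WT replicate 1 and 24.9% in WT replicate 3.

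Elongation and initiation factors were led by an elongation factor 1-alpha gene on chromosome 11, which brings aminoacyl-tRNA to the ribosome, at 1927, 1999 and 2048. The 14 genes for subunits of elongation factor 1 held 0.769% ± 0.0182 and the 82 genes named as initiation factors 1.08% ± 0.0135. Initiation factor 1A on chromosome 1 was at 1388, 1291 and 1325. Transcripts described as serving ribosome building were present as well. The class of nucleolar and ribosome assembly proteins held 0.943% ± 0.0223. It was led by genes described as the assembly factor mrt4, at 1410, 1251 and 1485, and as nucleolin, at 1150, 1333 and 1215. Both descriptions rest on the deposited annotation alone and were not checked against sequence, so the place of both genes in this class is uncertain. Fibrillarin, the methyltransferase of the small nucleolar particles, was at 343, 442 and 427.

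Among RNA-binding and splicing proteins 402 of 480 genes had a mean of at least 1, against 17995 of all 40229 genes. An RNA-binding protein gene on chromosome 1 led with 1752, 1590 and 1625. DEAD-box RNA helicase 7 on chromosome 6 was at 968, 1005 and 998. A reader protein of the ECT family, described as evolutionarily conserved C-terminal region 2, was at 923, 793 and 919.

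Classes counted as seed maturation, by description alone, formed the second block. When their transcripts were made was not tested. LEA proteins, oil body proteins, storage proteins and lipid-transfer proteins together held 11.5%, 10.8% and 9.78% of the sum. Of their 261 genes, 95 were at 0 in all 3 libraries, near the share over the whole table, 13506 of 40229. In contrast to the ribosomal proteins, this block was dominated by few genes. The 11 kDa gene alone made up 41.6% of the LEA class, and the 4 leading genes 68.8%. Without it the class held 4.26%, 4.07% and 3.72%.

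Of 78 LEA and dehydrin genes, 51 had a mean of at least 1 and 28 of at least 100. Over all 40229 genes these counts were 17995 and 1522. The LEA and dehydrin genes span the widest range in the plot of levels by class. LEA Dc3, on chromosome 3, was at 2277, 2671 and 3175. Lea5 on chromosome 9 was at 1755, 2143 and 2098. The D-29 gene on chromosome 12 was at 2200, 1830 and 1744, the D-34 gene on chromosome 9 at 1691, 1537 and 1293, and the seed maturation protein PM41 at 1556, 1401 and 1454. The members did not move as 1 group between libraries. The 4 leading genes were highest in WT replicate 1 and lowest in WT replicate 3, whereas Dc3 had the opposite order and a dehydrin on chromosome 4 was at 489, 407 and 977. Of the 51 genes, 27 were lowest in WT replicate 3, against 37.6% of all genes with a mean of at least 1.

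Oil body and lipid droplet proteins held 1.50%, 1.52% and 1.29% of the sum. Their 18 genes with a mean of at least 1 had a median of 369, the highest of the classes plotted by level. Oleosins on chromosomes 3 and 6 led with 3177, 3118 and 2358 and with 2426, 2468 and 1670. An oleosin on chromosome 12 was at 1398, 1546 and 1184. All 3 were lowest in WT replicate 3. A rubber elongation factor gene on chromosome 1, whose family coats lipid droplets in plants, was at 1709, 1886 and 2203 and was highest there instead. Peroxygenase, the enzyme name of caleosin, was at 467, 466 and 329 on chromosome 12.

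Seed storage proteins held 1.13%, 1.02% and 0.848%. The vicilin gene made up 65.8% of the class, and the rest held 0.399%, 0.331% and 0.292%. A vicilin-like antimicrobial peptide gene on chromosome 9 was at 1017, 910 and 700. The 2S albumin gene on chromosome 8 was at 919, 630 and 668, and the 2S sulfur-rich storage protein on the same chromosome at 643, 612 and 474. The 11S globulin on chromosome 9, of the legumin type, was lower, at 229, 140 and 158. Of the 13 members with a mean of at least 1, 9 were highest in WT replicate 1, against 24.9% of all genes with such a mean.

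Non-specific lipid-transfer proteins, small secreted proteins that bind lipids, held 1.31%, 1.34% and 1.50%. The 4 leading genes carried 82.5% of the class. They went in different directions between libraries. The gene on chromosome 1 noted above was at 4128, 3991 and 3329, while 2 genes on chromosome 10 were at 2118, 2989 and 3692 and at 1926, 1631 and 2684. Of 123 genes in the class, 59 were at 0 in all libraries, against 13506 of all 40229 genes.

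The vacuolar water channels of the seed were present too. Tonoplast intrinsic proteins 3.2 and 3.1, the isoforms known from seed storage vacuoles, were at 984, 1110 and 773 and at 429, 531 and 309. The leading plasma membrane aquaporin, PIP 1.5 on chromosome 8, was at 205, 190 and 191. The ranges of the tonoplast pair did not overlap with that of PIP 1.5.

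Large heat shock chaperones, small heat shock proteins and DnaJ co-chaperones together held 3.77%, 3.39% and 3.80% of the sum, less than the ubiquitin system in each library. The HSP90 genes held 0.868% ± 0.0801 and the HSP70 genes 0.950% ± 0.0573 (SD, n = 3). Each family was carried by few genes. Hsp90-2 was 32.6% of the large chaperones, and without it that class held 1.54%, 1.47% and 1.62%. A second Hsc70 gene on chromosome 10 was at 1152, 1160 and 1414, and the 60 kDa chaperonin on chromosome 11, which folds proteins in organelles, at 516, 535 and 612. ClpB, the disaggregase, held 0.0114% ± 0.000660 in 5 genes.

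Small heat shock proteins hold unfolding proteins in a soluble state. Of their 41 genes, 39 were above 0 in at least 1 library, against 26723 of all 40229 genes. The mitochondrial member on chromosome 8 led with 1436, 1163 and 1577 and made up 25.2% of the class. An HSP20-like gene on chromosome 9 was at 489, 559 and 591, and a class 2 member on chromosome 3 at 545, 378 and 522. Of the 34 genes with a mean of at least 1, 20 were highest in WT replicate 1, against 24.9% of all genes with such a mean. DnaJ genes on chromosomes 5 and 11 were at 1511, 1316 and 1532 and at 1414, 1344 and 1475.

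Among protective proteins outside the chaperones, stress-associated proteins with A20 and AN1 zinc fingers held 0.521% ± 0.0422 in 11 genes, led by a gene on chromosome 12 at 2928, 2536 and 2662. The type 2 metallothionein on chromosome 9, a cysteine-rich metal binder, was at 1895, 1955 and 3357. The Ec type, known from seeds of cereals, was at 1124, 1380 and 1175 on chromosome 1. The type 2 value of WT replicate 3 lay far above the other libraries. The 1-Cys peroxiredoxin, a peroxide-removing enzyme of embryo and aleurone in cereals, was at 840, 798 and 551. Cu-Zn superoxide dismutase 1 was at 545, 579 and 627 and catalase on chromosome 4 at 497, 434 and 502.

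Protein turnover was also well represented. In the ubiquitin system 770 of 1346 genes had a mean of at least 1, against 17995 of all 40229. A mean of at least 100 was reached by 52, near the share over the whole table, where 1522 genes reached it. Polyubiquitin genes on chromosomes 11 and 7 led with 2285, 2127 and 2797 and with 1859, 1147 and 2117. Ubiquitin-conjugating enzymes on chromosomes 6 and 8 were at 1335, 1443 and 1524 and at 1394, 1315 and 1389. The 22 ubiquitin genes held 0.976% ± 0.0917 and the 60 conjugating enzymes 0.918% ± 0.0309, whereas 451 F-box genes, the substrate adaptors of ubiquitin ligases, held 0.596% ± 0.0198. Proteasome subunits held 0.633% ± 0.0230 with an even level. Of their 54 genes with a mean of at least 1, 27 were at 100 or more, against 1522 of all 17995 such genes.

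Proteases held 1.36% ± 0.0328 and were led by papain-type enzymes. Cysteine proteinase 15A on chromosome 11 was at 1420, 1441 and 1283, RD21a on chromosome 2 at 750, 832 and 789, and CP8 on chromosome 5 at 755, 887 and 541. A vacuolar processing enzyme on chromosome 8, of the family that matures storage proteins, was at 460, 461 and 413.

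Energy transcripts covered fermentation, glycolysis, oil use and respiration. Alcohol dehydrogenase on chromosome 6, which regenerates NAD without oxygen, was at 2650, 2044 and 2198. Pyruvate decarboxylase on chromosome 10, the step before it, was at 1977, 1499 and 1703, and alcohol dehydrogenase-2 on chromosome 9 at 1235, 818 and 835. All 3 were highest in WT replicate 1, as was the class share of 0.805%, 0.576% and 0.645%. Genes named as alcohol dehydrogenase held 0.404% ± 0.0678 and pyruvate decarboxylases 0.264% ± 0.0497, against 0.00734% ± 0.00107 for lactate dehydrogenases. Other genes named for low oxygen held 0.256% ± 0.0124, led by a hypoxia-responsive family gene on chromosome 6 at 1292, 1542 and 1377. A non-symbiotic haemoglobin on chromosome 7 was at 350, 318 and 310.

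Glycolysis held 0.764% ± 0.0425. Glyceraldehyde 3-phosphate dehydrogenase on chromosome 5 led with 1504, 1125 and 1295, ahead of triosephosphate isomerase on chromosome 4 at 1038, 948 and 926 and phosphoglycerate kinase on chromosome 7 at 857, 843 and 841. Sucrose synthase on chromosome 7 was at 435, 300 and 333. The range of alcohol dehydrogenase on chromosome 6 lay above those of the 3 glycolytic enzymes, while that of alcohol dehydrogenase-2 overlapped with all 3.

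The glyoxylate cycle turns fatty acids into sugar precursors. Its key enzymes were expressed at high level: isocitrate lyase on chromosome 7 was at 1928, 1870 and 1983 and malate synthase on chromosome 3 at 973, 806 and 1005. The multifunctional protein of beta-oxidation on chromosome 12 was at 1088, 956 and 1080. Phosphoenolpyruvate carboxykinase on chromosome 4, the entry to sugar synthesis, was at 808, 811 and 1164. Isocitrate lyase varied by 2.92% between libraries, the carboxykinase by 22.1% (coefficient of variation, SD over mean). A second malate synthase gene on the same chromosome was at 5.30, 3.36 and 5.0.

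Respiratory chain subunits held 1.27% ± 0.0670. The Rieske subunit of cytochrome b-c1 on chromosome 11 was at 566, 554 and 586 and cytochrome c on chromosome 1 at 319, 392 and 365. The alternative oxidase on chromosome 8, which bypasses the proton-pumping complexes, was at 317, 243 and 421. Mitochondrial import proteins and carriers held 0.983% ± 0.0281, with the ADP/ATP carriers on chromosome 11 at 1605, 1765 and 1735 and at 918, 1017 and 1041.

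Histones held 1.12% ± 0.0697. H1, H2A, H2B, H3 and H4 genes held 0.220%, 0.189%, 0.226%, 0.201% and 0.281%, and the H1 histone-like gene on chromosome 2 led with 1453, 1146 and 1125. Of the 55 histone genes with a mean of at least 1, 34 were highest in WT replicate 3, against 24.9% of all genes, although the share of the class there, 1.15%, lay between those of the other libraries. The deacetylase HDT1 on chromosome 11, of a plant-specific nucleolar family, was at 2533, 2646 and 2407, or 28.4% of the chromatin proteins. The 23 A-type and B-type cyclin genes held 0.0215% ± 0.000887. Of them 9 had a mean of at least 1, against 17995 of all 40229 genes. Cyclin-B1-2 on chromosome 2 led with 124, 123 and 126. Actin on chromosome 3 was at 1267, 1168 and 1248 and an alpha tubulin on chromosome 8 at 882, 966 and 1140.

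Of 1727 genes described as transcription factors 741 had a mean of at least 1 and 41 of at least 100, against 1522 at 100 or more among all 17995 genes with a mean of at least 1. The factors held 2.34% ± 0.0376 of the sum. The median of the 741 was 10.9, close to the 12.1 of those 17995 genes. The highest, a gene on chromosome 9 described only as a sequence-specific DNA-binding factor, ranked 171 among all genes, with 970, 465 and 727. Ethylene response factor E.1 on chromosome 9 followed with 531, 464 and 500, and LOB domain protein 41 on chromosome 3 with 448, 408 and 429. The ranges of the first and second overlapped, and that of LOB domain protein 41 lay below both.

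The next factors were zinc finger factor 64 on chromosome 10 at 373, 434 and 438, the coactivator MBF1c on chromosome 1 at 376, 297 and 476, a LOB domain gene on chromosome 2 at 462, 263 and 406, and bHLH144 on chromosome 8 at 329, 410 and 365. The bZIP genes on chromosomes 4 and 10 were steadier, at 303, 293 and 290 and at 248, 261 and 254. A heat shock transcription factor on chromosome 3 was at 269, 220 and 277. Factor A3 of the same family, on chromosome 9, was at 185, 213 and 249. The leading NAC gene, on chromosome 11, was at 198, 176 and 251, a range that overlapped with those of both heat shock factors. Leading members of the other families were lower. WRKY 11 on chromosome 8 was at 88.9, 102 and 116, and R2R3MYB 44 on chromosome 2 at 81.6, 166 and 77.7. An HD-ZIP gene on chromosome 1 was at 64.0, 67.0 and 66.7.

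The maturation regulators ABI3 and FUS3, B3-domain factors that switch on storage and LEA genes in Arabidopsis, were at 224, 264 and 205 and at 166, 126 and 119 on chromosome 6. Their ranges did not overlap. Delay of germination genes, named for the Arabidopsis dormancy regulator DOG1, were near the lower end: 1 copy on chromosome 2 was at 1.05, 16.9 and 0 and the other at 1.61, 1.60 and 2.61. The first of these thus rests on WT replicate 2. Phytochrome A on chromosome 10, a light receptor of imbibed seeds, was at 66.6, 59.6 and 61.7.

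Abscisic acid genes held 0.106% ± 0.0129. Receptors made up most of it, with PYL4-like on chromosome 6 at 225, 143 and 204, PYL8 on chromosome 3 at 200, 150 and 156 and PYL10 on chromosome 1 at 160, 92.0 and 96.9. ABI5-like protein 4 on chromosome 9, a bZIP factor of this pathway, was at 86.4, 78.2 and 70.7. None of the 5 genes for 9-cis-epoxycarotenoid dioxygenase, the rate-limiting enzyme of abscisic acid synthesis, had a mean of at least 1. A gene named ABA 8'-hydroxylase, the catabolic enzyme, was at 0.07 in each library. Other copies may carry the general cytochrome P450 description, which was not searched.

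Gibberellin genes held 0.0728% ± 0.00709. The DELLA repressor GAI on chromosome 11 was at 98.1, 122 and 86.5. Among enzymes, the inactivating gibberellin 2-oxidase 4 on chromosome 7 was at 97.3, 28.5 and 45.1 and the synthetic gibberellin 20-oxidase-2 on chromosome 6 at 21.9, 9.74 and 11.9. Both were highest in WT replicate 1. Of the 15 genes for gibberellin 20- and 3-oxidases, 11 were at 0 in all libraries and 1 had a mean of at least 1. Over all 40229 genes, 13506 were at 0 in all libraries and 17995 had such a mean. The 3 gibberellin receptor genes held 0.00478% ± 0.000948.

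Of the genes named like the edited ones, LOB domain protein 40 on chromosome 5 was at 20.4, 5.60 and 11.8, a range that includes the median of 12.1 over all genes with a mean of at least 1. WRKY 37 on chromosome 1 was at 0.28, 0.70 and 0.92, below 1 in each library. Whether these descriptions belong to the edited genes SlLBD40 and SlWRKY37 could not be settled from the truncated identifiers in the table.

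**Figure D4:**
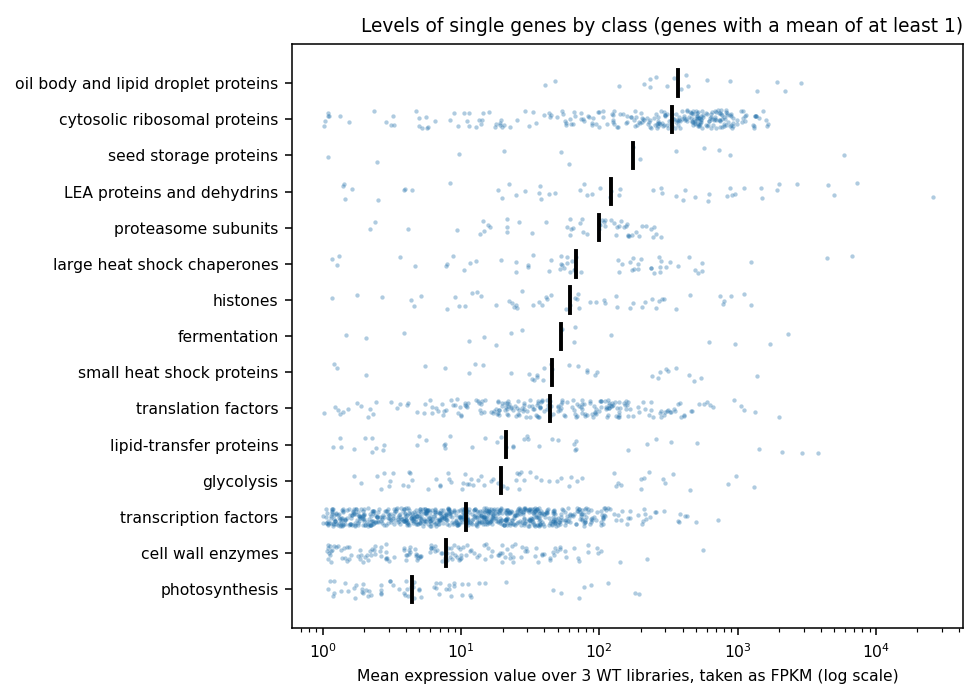
Mean expression value over 3 WT libraries (x axis, taken as FPKM, log scale) of each gene with a mean of at least 1, by class; points are genes, spread vertically at random, and black bars are medians. Oil body proteins (median 369) and cytosolic ribosomal proteins (333) lie highest, transcription factors (10.9) and photosynthesis genes (4.43) low, and LEA genes span the widest range.

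The seed label was checked against markers. Oleosin was carried by part of its family: 10 of 19 genes were above 0 and 9 had a mean of at least 1, against 26723 and 17995 of all 40229 genes. Of the 19, 8 were at 100 or more, and the family held 0.954% ± 0.143 of the sum. Among names of green tissue, 37 chlorophyll-binding genes held 0.0175% ± 0.00290 and 150 photosystem subunits 0.0483% ± 0.0127. The 4 small subunit genes of Rubisco, the carbon-fixing enzyme, held 0.0516% ± 0.0358. All 4 had a mean of at least 1, and 2 of them of at least 100. Names known from ripe fruit were low: 12 polygalacturonase and phytoene synthase genes held 0.00381% ± 0.000200 and the E8 protein homologue was listed at 0 in each library. The 8 high-affinity nitrate transporter genes held 0.000272% ± 0.000100, 31 pollen allergen and anther-specific names 0.0362% ± 0.00283, and 113 peroxidases 0.0330% ± 0.00558. The alkaline alpha-galactosidase called seed imbibition protein was at 14.5, 15.1 and 11.2.

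Enzymes that loosen the cell wall, which act in endosperm softening before the root emerges, were a small part. The class held 0.350%, 0.410% and 0.363%. It was led by beta-mannosidase on chromosome 3 at 536, 569 and 581. The endo-beta-mannanase gene on chromosome 12, described as mannan endo-1,4-beta-mannosidase 1, was at 93.1, 101 and 98.9. Expansins held 0.0205% ± 0.00319 in 39 genes, none of them at a mean of 100, and 52 beta-1,3-glucanases 0.0276% ± 0.00222. A xyloglucan endotransglucosylase on chromosome 7 was at 158, 293 and 218.

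Across all genes with a mean of at least 1 the libraries were close. Pearson's r between libraries over log2(value + 1) of these 17995 genes was 0.969 for WT replicates 1 and 2, 0.973 for 1 and 3 and 0.970 for 2 and 3; genes are not independent replicates. Between 614 and 697 genes differed by more than 1 on the log2 scale in a pair of libraries. The median coefficient of variation fell with level, from 19.6% for means of 1 to 10 to 8.96% for 10 to 100 and 7.50% for 100 to 1000, and was 8.53% above 1000.

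Some class shares nevertheless differed between libraries. For LEA proteins they were 7.56%, 6.93% and 6.14%, so WT replicate 2 lay between the others, as it did for storage proteins. WT replicate 3 had the lowest shares of LEA, oil body and storage proteins, given above, and the highest of photosynthesis genes, at 0.107%, 0.0861% and 0.186%. Of the 67 photosynthesis genes with a mean of at least 1, 48 were highest in WT replicate 3, against 24.9% of all such genes. The 4 small subunit genes of Rubisco, the carbon-fixing enzyme, held 0.0376%, 0.0250% and 0.0923%. Metallothioneins held 0.344%, 0.373% and 0.516%. These values were measured in the same library, and their part in its lower maturation share was not tested. Lipid-transfer proteins, the remaining class counted as maturation, were instead highest in WT replicate 3, at 1.31%, 1.34% and 1.50%.

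**Figure D5:**
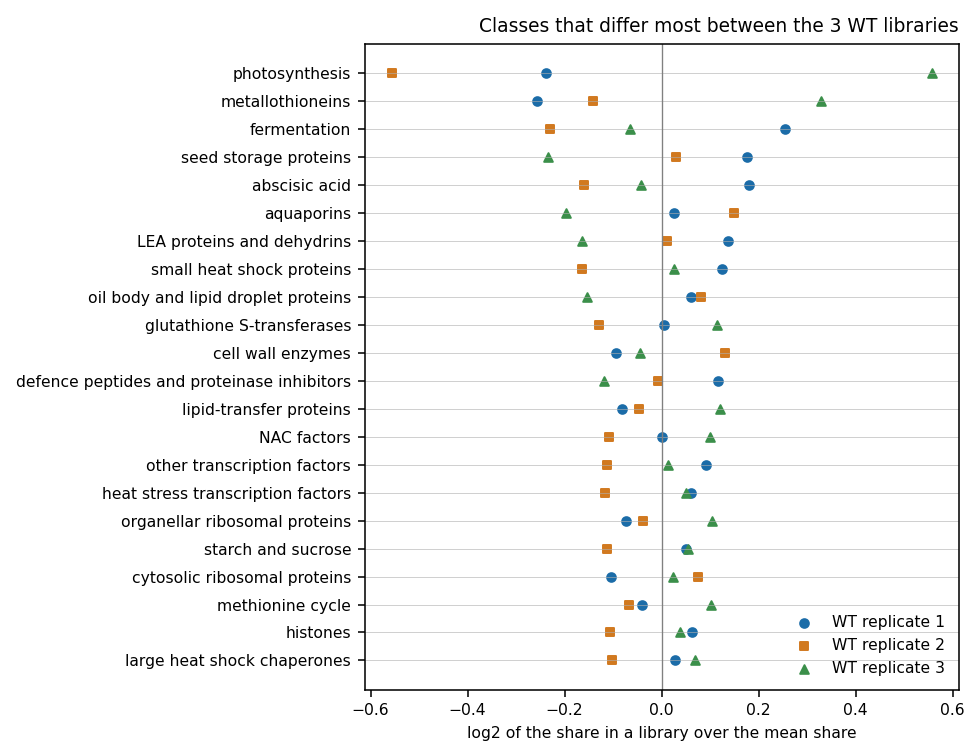
Log2 of the share of a class in each WT library over its mean share (x axis) for the 22 classes with the largest coefficient of variation among those holding at least 0.1% of the sum; circles, squares and triangles mark WT replicates 1, 2 and 3. WT replicate 3 is highest for photosynthesis and metallothioneins and lowest for storage, LEA and oil body proteins, and WT replicate 1 is highest for fermentation.

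Single genes gave a less uniform picture. Of the 10 most variable genes with a mean of at least 100, 7 were highest in WT replicate 3, but of the 100 most variable 39 were highest in WT replicate 1, 20 in WT replicate 2 and 41 in WT replicate 3. The Rubisco small subunit gene on chromosome 2 led with 130, 58.7 and 351, and that on chromosome 3 was at 165, 116 and 302. Chalcone isomerase on chromosome 2, an enzyme of flavonoid synthesis, was at 310, 275 and 602. The ethylene-forming 1-aminocyclopropane-1-carboxylate oxidase 1 on chromosome 6 was at 214, 166 and 387. A phospholipase A1 gene on chromosome 2 was at 155, 154 and 332 and the defence gene ELI3 on chromosome 11 at 116, 113 and 236. The dehydrin on chromosome 4 noted above belongs to the same 7. The other 3 were R2R3MYB 44, highest in WT replicate 2, and an unknown protein gene and a hypothetical protein gene on chromosome 4, at 161, 61.3 and 85.6 and at 909, 344 and 670.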

How the data were processed

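Per the labels' protocols, seed RNA was purified with RNeasy mini plus and turned into libraries by the SMARTER mRNA-Seq kit. TopHat2, HISAT2, StringTie and Cufflinks are named in the submitters' processing notes, without versions or roles. Genome build and annotation were not given in the sources used here. Per the file, the authors deposited a single table of normalized values, taken as FPKM since no header names the unit. The WT replicate 1 column touches its neighbour, so that deposited value of unit other was read from characters 73 to 80 of each line. Identifiers are cut to 8 characters in the table, so genes go by description and chromosome, and none was matched to RefSeq.

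Shares, ranks, mean ± SD and coefficients of variation were computed with Python 3.11.15, numpy 2.4.6 and pandas 2.3.3. Only class shares and a median coefficient of variation were checked on simulated data. The simulation used the same class assignment throughout, so it did not test class membership. Classes are 60 ordered word patterns, first match taken. The members and lists were chosen with earlier results of these data known. Named were the 25 most abundant genes, up to 4 leading members of the 15 largest and of the regulatory classes, the 10 leading transcription factors, the 10 most variable genes with a mean of at least 100 and the cell type markers; further members of the classes were named after their values were seen. Replicate numbers come from the labels. Sequences were not analysed here. Alternatives left out each library, RNA genes, genes with a mean under 1 or the 10 leading genes, or changed the class assignment, the average, the pseudocount or the scaling.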

Additional observations from a re-analysis of the deposited data

How the results depend on the processing

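No paired analysis was possible because the description covers a single group. With the 10 most abundant genes left out of total and classes, the share of cytosolic ribosomal proteins was 13.4%, LEA proteins 2.36%, the ubiquitin system 4.36%, RNA-binding and splicing 4.15%, translation factors 3.33%, large heat shock chaperones 1.15%, oil body proteins 1.58%, lipid-transfer proteins 1.05% and storage proteins 0.375%. The most abundant remaining gene then held 0.425% and the first 10 held 3.59%. LEA proteins, second among the named classes otherwise, then fell behind the ubiquitin system, RNA-binding proteins and translation factors. Kinases and phosphatases were not recomputed. They held 2.71% with all genes and none of the 10 belonged to them, so LEA proteins fell behind them too. With protein-coding identifiers only, RNA-binding and splicing held 3.83%. With every matching pattern counted, translation factors held 3.26% and large heat shock chaperones 2.82%. In these 14 cases the value moved by more than 1 SD between libraries; the other 98 values of class shares, concentration and spread moved by less, or by under 1.5 times for counts and spreads. The LEA share lay between 6.54% and 7.25% when each library was left out in turn. The shares of the 10 leading genes moved by less than 1 SD in all 50 combinations of gene and setting. With 3 libraries, leaving 1 out or taking the median cannot move a mean share by 1 SD. For shares those settings are therefore no test of stability. Precision is limited by 3 libraries of unknown depth, an unstated unit and classes that rest on descriptions.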

Other observations

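Transcripts without an assigned function held 7.03% ± 0.0956 (SD, n = 3) of the sum. Of 5583 genes described as unknown, hypothetical or of an uncharacterised domain, 1703 had a mean of at least 1 and 84 of at least 100. Both were smaller parts than over all 40229 genes, of which 17995 and 1522 reached these levels. Besides the second most abundant gene, another on unplaced sequence was at 3531, 2527 and 3140 and a gene on chromosome 10 at 2960, 2602 and 2997. A DUF1264 gene on chromosome 9 was at 1295, 1254 and 1006. The 11 genes described as meloidogyne-induced giant cell proteins were all above a mean of 1 and held 1.15% ± 0.0205 of the sum.

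Among 6154 RNA genes, 1051 had a mean of at least 1, against 17995 of all 40229 genes. The class held 1.30%, 1.39% and 1.45%. Solyc00r000200.1, on unplaced sequence, was at 2294, 2448 and 3336 and made up 21.7% of it, and Solyc06r031920.1 on chromosome 6 was at 838, 814 and 859. Protein-coding genes on chromosome 1 held 13.4% ± 0.0951 of the sum, on 2179 genes with a mean of at least 1, and those on chromosome 5 held 4.83% ± 0.0614 on 1104 such genes. Some genes were at 5 or more in a single library and at 0 in both others: 25 in WT replicate 1, 27 in WT replicate 2 and 13 in WT replicate 3. A succinate dehydrogenase iron-sulfur subunit gene on chromosome 2 was at 63.3, 0 and 0.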
